A study of Mus musculus with 24 samples.

Results

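The natriuretic peptides and their receptors were followed through 6 genes of the 19057 named on the arrays: the peptide genes Nppa and Nppb, the receptor genes Npr1, Npr2 and Npr3, and Corin. Every probe annotated to one of these genes was taken, which gave 11 of the 45281 probes, with 1 probe for each gene except Npr3, which had 6. The samples were total RNA from the left ventricle of male mice, hybridised to 24 Illumina arrays in 8 groups of 3. In C57Bl/6J mice the groups were wild type and Bmx-deficient animals, the latter titled KO, each infused for 2 weeks with angiotensin II (AngII) or with NaCl (titled sham). In Balb/C mice the groups were wild type and Bmx-deficient animals, here titled TK, with the same infusions. Bmx is a non-receptor tyrosine kinase of the Tec family, and AngII is the peptide hormone that the study used to induce cardiac hypertrophy. The sources used here do not say what the titles KO and TK stand for, how old the mice were, what AngII dose they received or whether each array held a separate animal. The p-values therefore reflect only how these arrays spread within groups, part of which may be technical.

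Nppa encodes atrial natriuretic peptide (ANP) and Nppb encodes brain natriuretic peptide (BNP), hormones that heart muscle releases when it is stretched and that lower blood pressure through sodium excretion and vessel relaxation. Corin is a membrane protease of heart muscle cells that cuts pro-ANP into the active hormone. ANP and BNP bind the guanylyl cyclase receptor encoded by Npr1, C-type natriuretic peptide binds the cyclase receptor encoded by Npr2, and the receptor encoded by Npr3 takes up all of these peptides and clears them. In the healthy adult left ventricle Nppa is expressed at a far lower level than in the atria, and a rise of Nppa and Nppb is a widely used sign of hypertrophy.

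The promoters of both peptide genes are shown because the genes lie beside each other on chromosome 4 and both responded to AngII in these data. RefSeq sequences of build GRCm38.p6 ran from 250 bases before to 50 bases after each annotated start, and capitals mark every match, on either strand, to GATAA (the core bound by GATA factors), AAGTG (bound by Nkx2-5), TATAAA (the TATA box), CATTCC (bound by Tead factors) or TGANTCA (bound by AP-1). The first window is chr4:147985650-147985949 and the second is chr4:148000472-148000771, both on the plus strand.
Nppb: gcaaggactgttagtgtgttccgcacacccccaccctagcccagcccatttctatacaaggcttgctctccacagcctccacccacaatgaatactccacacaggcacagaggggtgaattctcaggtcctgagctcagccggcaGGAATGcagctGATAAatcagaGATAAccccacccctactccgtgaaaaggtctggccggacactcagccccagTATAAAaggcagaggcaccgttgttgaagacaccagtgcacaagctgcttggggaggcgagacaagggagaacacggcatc
Nppa: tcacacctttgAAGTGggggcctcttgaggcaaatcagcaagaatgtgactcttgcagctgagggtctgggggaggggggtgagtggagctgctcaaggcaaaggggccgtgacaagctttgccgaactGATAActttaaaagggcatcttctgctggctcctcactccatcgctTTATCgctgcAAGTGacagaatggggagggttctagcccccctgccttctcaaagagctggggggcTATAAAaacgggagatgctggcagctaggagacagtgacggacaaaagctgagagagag
The starts lay 14822 bases apart, with 0 other protein-coding genes starting between them. Both windows held 2 matches to GATAA, at 94 and 83 bases before the start in Nppb and at 121 and 75 bases before it in Nppa, where the nearer match was on the minus strand. At least 2 matches to GATAA were present in 5.3% of 32851 promoter windows, and at least 1 was present in 25.4%. Each window also held TATAAA, which began 31 bases before the start in Nppb and 9 bases before it in Nppa and was present in 13.6% of windows. AAGTG was found at 2 places in Nppa and in 46.4% of windows, CATTCC at 1 place in Nppb and in 14.7% of windows, and TGANTCA in neither and in 7.8% of windows. No base lay in more than 1 match. These are letter matches, and binding was not measured. Positions were counted from the annotated starts. Where transcription began in these hearts was not measured, so distances in the 2 genes may not be comparable.

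The arrays had median signals of 124.2 to 139.8 in C57Bl/6J and of 95.3 to 110.2 in Balb/C, with 17934 to 19262 and 17222 to 18592 probes detected, meaning a detection p-value below 0.05. Replicates of a group correlated between 0.985 and 0.993. After background correction and quantile normalization within each strain, 8 of the 11 probes passed the detection filter in each strain, and all 6 genes were among the 10816 tested for C57Bl/6J and the 10669 tested for Balb/C. Levels are normalized log2 signals, and each difference is given on that scale with its standard error (SE) and its Benjamini-Hochberg adjusted p from limma over all of these genes. A gene was called at an adjusted p below 0.05. Since the tissue was measured in bulk, fewer cells of a type and less RNA per cell cannot be told apart. Of 8 listed ventricular muscle markers 7 passed the filter in each strain, Tnnt2 being the exception. Bmx itself had 4 probes, of which ILMN_2857993 was detected on all 24 arrays. Its level was 6.42 ± 0.10 (SD, n = 3) in wild type and 6.10 ± 0.11 (SD, n = 3) in Bmx-deficient C57Bl/6J sham hearts, and 5.67 ± 0.10 and 5.71 ± 0.10 (SD, n = 3 each) in the corresponding Balb/C groups. Of the other 3 probes 1 was detected on 2 wild type C57Bl/6J arrays and the remainder on none. Where the probes lie relative to the altered part of the gene was not given in the sources used here, so Bmx does not check the genotype labels.

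AngII raised the peptide genes in every strain and genotype except for Nppb in Bmx-deficient Balb/C hearts, which missed the threshold, and it raised Npr2 in Balb/C hearts. In wild type C57Bl/6J hearts 2 of the 6 genes were called, against 7.9% of all genes tested, and both were peptide genes and were higher under AngII. In Bmx-deficient C57Bl/6J hearts the same 2 genes were called, against 3.72% of all genes. In wild type Balb/C hearts 3 of 6 were called, Nppa, Nppb and Npr2, all higher, against 37.2% of all genes, a background much broader than in the other comparisons. Among Bmx-deficient Balb/C groups 3 of 6 were called, against 13.4% of all genes, with Nppa and Npr2 higher and Npr3 lower. In these 4 comparisons the genes whose infusion groups did not overlap were the called genes, against 29.2%, 26.7%, 46.5% and 34.8% of all genes with groups that did not overlap.

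**Figure D1:**
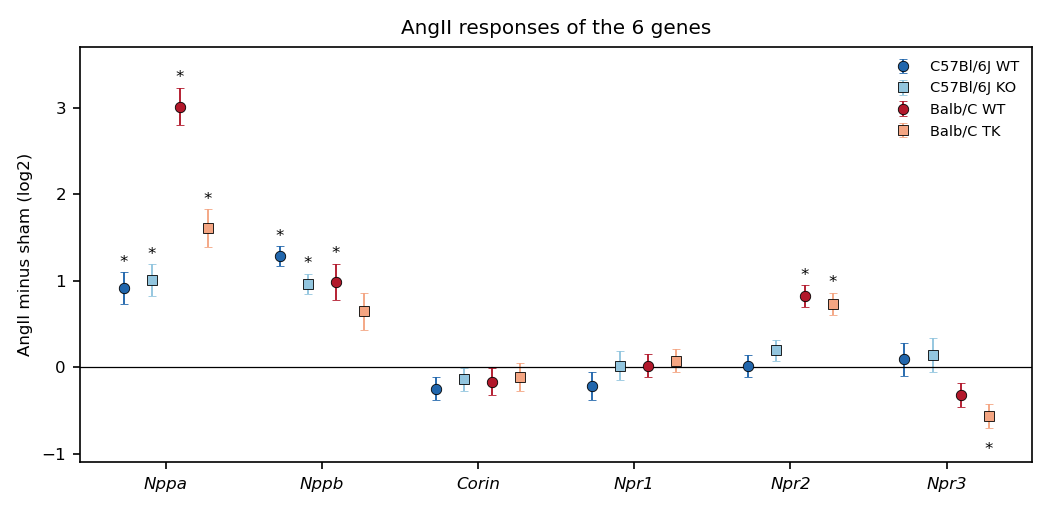
Response to AngII of the 6 genes, as AngII minus sham on the normalized log2 scale (vertical axis), in each strain and genotype. Points are differences of group means (3 arrays each), bars are ± SE from limma, and asterisks mark an adjusted p below 0.05. Nppa in wild type Balb/C hearts stands apart at 3.01, Npr2 is called in both Balb/C groups, and Npr1 and Corin lie near 0.

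Nppa, the ANP gene, was already bright in sham C57Bl/6J ventricles and rose about 2-fold under AngII. Its deposited signal was 13813, 16858 and 14891 on the 3 wild type sham arrays and 34371, 32349 and 23552 on the 3 wild type AngII arrays. All AngII arrays lay above all sham arrays. In Bmx-deficient C57Bl/6J hearts the signal was 19410, 16132 and 12904 under sham and 30536, 38073 and 32248 under AngII, again without overlap. The normalized difference was 0.91 ± 0.19 (SE, adjusted p = 0.0112) in wild type hearts, a 1.88-fold rise, and 1.01 ± 0.19 (SE, adjusted p = 0.0197) in Bmx-deficient hearts, a 2.01-fold rise. The call in Bmx-deficient hearts depended on single arrays: without replicate 2 of the AngII group it was 0.88 (adjusted p = 0.0503) and without replicate 3 of the sham group 0.82 (adjusted p = 0.0665). The order of the normalized levels was Bmx-deficient AngII at 14.97 ± 0.22, wild type AngII at 14.81 ± 0.31, Bmx-deficient sham at 13.97 ± 0.32 and wild type sham at 13.90 ± 0.05 (SD, n = 3 each). Neighbours in this order overlapped within each infusion and were separate between infusions.

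In Balb/C hearts Nppa rose under AngII in both genotypes, and its difference was larger in wild type than in Bmx-deficient mice. The signal was 1456, 3801 and 2189 on the wild type sham arrays and 24813, 23498 and 22313 on the wild type AngII arrays. In Bmx-deficient mice it was 3972, 3492 and 2773 under sham and 10775, 11053 and 12609 under AngII. Each AngII group lay above both sham groups, and every Bmx-deficient AngII array was dimmer than every wild type AngII array. The wild type difference was 3.01 ± 0.22 (SE, adjusted p = 1.6e-07), an 8.07-fold rise and the 18th highest difference among the 10669 genes. The Bmx-deficient difference was 1.61 ± 0.22 (SE, adjusted p = 0.000239), a 3.05-fold rise and the 33rd highest. Levels ran in the order wild type AngII at 14.42 ± 0.11, Bmx-deficient AngII at 13.34 ± 0.16, Bmx-deficient sham at 11.73 ± 0.22 and wild type sham at 11.40 ± 0.58 (SD, n = 3 each), and of the neighbours in this order the sham groups alone overlapped. The wide spread of the wild type sham group came from replicate 2, at 12.08 against 11.10 and 11.04 on the other arrays.

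**Figure D2:**
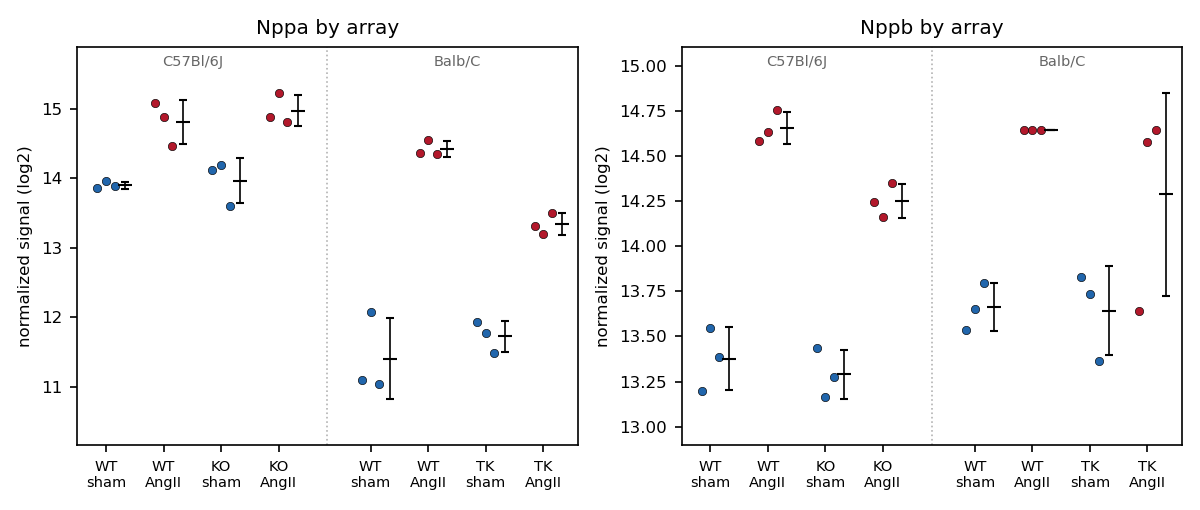
Normalized log2 signal of Nppa and Nppb (vertical axes) on each of the 24 arrays by group; points are arrays, blue for sham and red for AngII, and bars are the group mean ± SD (n = 3). Nppa in Balb/C hearts falls into 3 levels, from 11.40 to 11.73 in sham hearts through 13.34 in Bmx-deficient to 14.42 in wild type AngII hearts, while Nppb in wild type Balb/C AngII hearts sits at 14.65 on all 3 arrays.

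Nppb, the BNP gene, was bright in all 8 groups and rose about 2-fold under AngII in both C57Bl/6J genotypes. Its signal in wild type C57Bl/6J hearts was 8858, 12803 and 10362 under sham and 22464, 26275 and 28392 under AngII, with every AngII array well above every sham array. In Bmx-deficient C57Bl/6J hearts it was 11926, 7709 and 10399 under sham and 18702, 18170 and 24320 under AngII, also without overlap. The differences were 1.28 ± 0.12 (SE, adjusted p = 0.00011), a 2.43-fold rise, in wild type hearts and 0.96 ± 0.12 (SE, adjusted p = 0.00714), a 1.95-fold rise, in Bmx-deficient hearts. Among 10816 genes these were the 48th and the 66th highest differences. Normalized levels ran from wild type AngII at 14.66 ± 0.09 through Bmx-deficient AngII at 14.25 ± 0.09 and wild type sham at 13.38 ± 0.18 to Bmx-deficient sham at 13.29 ± 0.14 (SD, n = 3 each). The sham groups overlapped, and the other neighbours did not.

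In Balb/C hearts the Nppb signal was 7630, 11154 and 13634 in wild type sham, 29778, 25274 and 27881 in wild type AngII, 15424, 13332 and 9570 in Bmx-deficient sham and 13065, 25967 and 26415 in Bmx-deficient AngII arrays. The wild type groups were far apart, whereas replicate 1 of the Bmx-deficient AngII group lay among the sham arrays. The wild type difference was 0.99 ± 0.21 (SE, adjusted p = 0.00196), a 1.98-fold rise. The Bmx-deficient difference was 0.65 ± 0.21 (SE, adjusted p = 0.0553) and was not called, while without replicate 1 of the AngII group it was 0.97 ± 0.16 (SE, adjusted p = 0.00149). The levels were 14.65 ± 0.00 in wild type AngII, 14.29 ± 0.56 in Bmx-deficient AngII, 13.66 ± 0.13 in wild type sham and 13.64 ± 0.25 in Bmx-deficient sham (SD, n = 3 each), and every pair of neighbours in this order overlapped.

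The 0 spread of Nppb in wild type Balb/C AngII hearts goes with its rank on the arrays. On each of these 3 arrays Nppb was the second brightest probe of all 45281, at 94.1%, 95.5% and 98.9% of the signal of the brightest, and quantile normalization gives a probe of equal rank an equal value. In Bmx-deficient Balb/C AngII hearts Nppb reached 91.6% and 98.7% of the brightest probe on 2 arrays, with 3 and 1 brighter probes, and 46.3% on replicate 1, with 88 brighter probes. In Balb/C sham hearts it lay between 32.9% and 52.9%. Nppa reached 78.4%, 88.8% and 79.2% of the brightest probe in wild type Balb/C AngII hearts, with 22, 5 and 24 brighter probes, but 38.2% to 47.1% in Bmx-deficient AngII hearts and 6.27% to 14.4% in sham hearts. The top of the Balb/C arrays was sparsely filled, with 1 to 6 probes at or above 90% of the brightest.

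In wild type AngII and in sham hearts Nppb lay further below the brightest probe on C57Bl/6J than on Balb/C arrays. For Nppa this held in wild type AngII hearts alone, and in the other groups Nppa lay nearer the top on C57Bl/6J arrays. The brightest probes of the C57Bl/6J arrays had signals of 46045 to 50427, against 23227 to 31652 in Balb/C. Nppa lay at 47.2% to 69.2% of the brightest probe in wild type AngII and at 62.3% to 82.7% in Bmx-deficient AngII hearts, with at least 20 brighter probes on every array, and at 25.6% to 40.1% in sham hearts. Nppb lay at 45.2% to 56.95% in wild type AngII, at 38.1% to 50.4% in Bmx-deficient AngII and at 15.8% to 26.8% in sham hearts. The scanner's upper limit was not given in the sources used here.

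**Figure D3:**
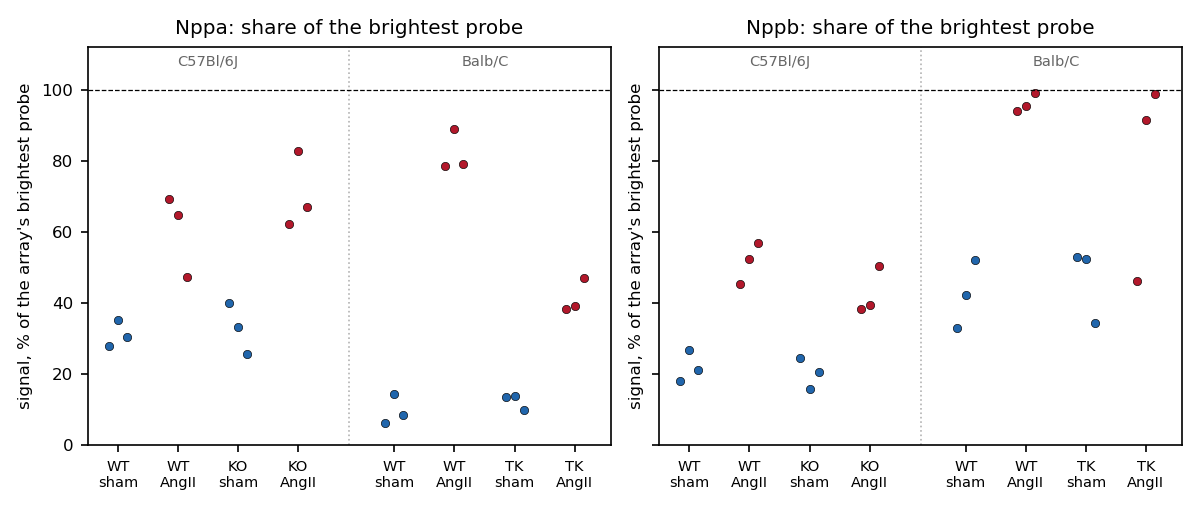
Signal of Nppa and Nppb on each array as a percentage of the brightest probe on the same array (vertical axes), by group; blue points are sham and red points AngII arrays, and the dashed line marks 100%. Nppb lies between 94.1% and 98.9% on the 3 wild type Balb/C AngII arrays, while the C57Bl/6J AngII arrays lie between 38.1% and 56.95% for Nppb.

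The size of the Nppb response in Balb/C hearts depended on how arrays were put on one scale, whereas the direction and the call of the wild type responses of Nppa, Nppb and Npr2 did not. In wild type hearts the Nppb difference was 0.96 with the deposited normalized values, 1.27 after scaling to a common median, 1.40 without normalization between arrays and 1.39 on the log2 of the deposited signals. The last 3 scalings, which use no quantile normalization, shifted the median of all genes in this comparison from -0.06 to 0.32, 0.45 and 0.30. Relative to that median Nppb was higher by 1.04 under quantile normalization and by 0.95, 0.95 and 1.10 under the others. In Bmx-deficient Balb/C hearts the corresponding median was -0.05 under quantile normalization and -0.04, 0.01 and 0.03 under the others.

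**Figure D4:**
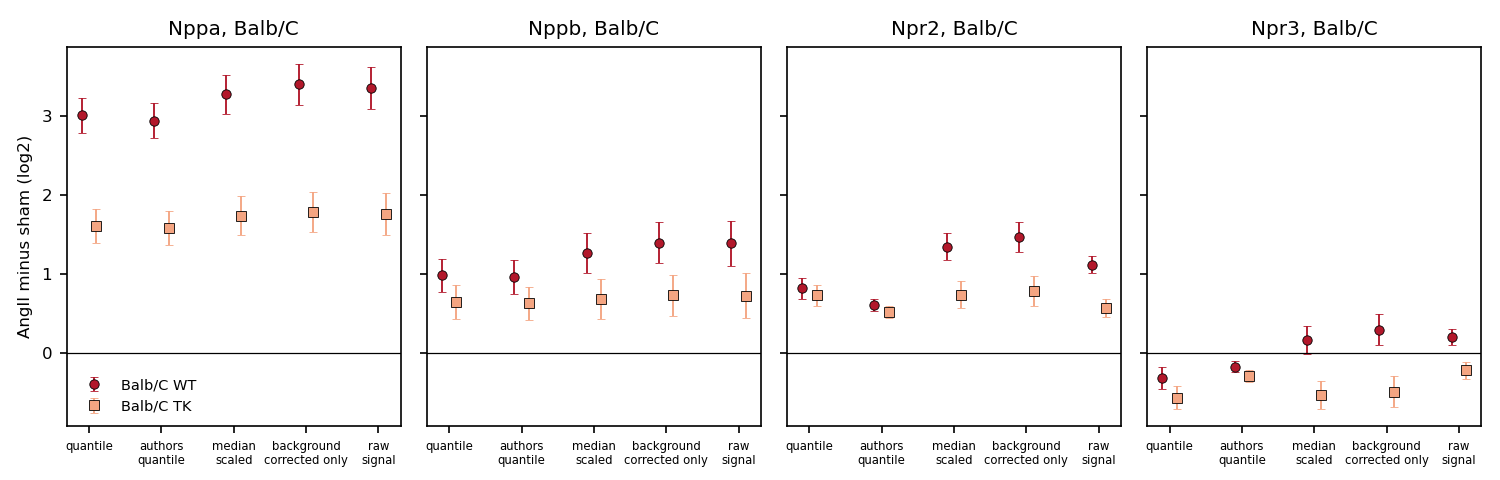
AngII minus sham log2 difference (± SE) of Nppa, Nppb, Npr2 and Npr3 in Balb/C hearts under 5 ways of scaling the arrays; circles are wild type and squares Bmx-deficient mice. The wild type values of all 4 genes move up without quantile normalization, and Npr3 in wild type hearts passes from -0.32 to values above 0.

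Corin, the pro-ANP convertase, was bright and was called in none of the 5 comparisons of either strain. Its signal ranged from 3547 to 6494 in C57Bl/6J and from 2217 to 5501 in Balb/C arrays. Its AngII difference was -0.25 ± 0.14 (SE, adjusted p = 0.292) in wild type and -0.14 ± 0.14 (adjusted p = 0.587) in Bmx-deficient C57Bl/6J hearts, and -0.17 ± 0.16 (adjusted p = 0.439) and -0.11 ± 0.16 (adjusted p = 0.685) in the Balb/C genotypes. The infusion groups overlapped in all 4 comparisons.

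Npr2, the receptor for C-type natriuretic peptide, rose under AngII in both Balb/C genotypes. Its Balb/C signal was 195, 237 and 256 in wild type sham, 562, 479 and 453 in wild type AngII, 235, 233 and 228 in Bmx-deficient sham and 339, 354 and 341 in Bmx-deficient AngII arrays. Every AngII array lay above every sham array, and the wild type AngII arrays lay above the Bmx-deficient ones in signal. The differences were 0.82 ± 0.13 (SE, adjusted p = 0.000165), a 1.76-fold rise, in wild type and 0.73 ± 0.13 (SE, adjusted p = 0.00157), a 1.66-fold rise, in Bmx-deficient hearts. After normalization the levels were 8.30 ± 0.17 in wild type AngII, 8.07 ± 0.09 in Bmx-deficient AngII, 7.48 ± 0.06 in wild type sham and 7.33 ± 0.11 in Bmx-deficient sham (SD, n = 3 each), and the genotypes overlapped within each infusion. In C57Bl/6J hearts, where Npr2 stood at 8.34 ± 0.15 in wild type sham and 8.35 ± 0.02 in wild type AngII (SD, n = 3 each), the differences were 0.01 ± 0.13 (adjusted p = 0.964) and, in Bmx-deficient mice, 0.20 ± 0.13 (adjusted p = 0.388).

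Npr3, the clearance receptor, was lower under AngII in Bmx-deficient Balb/C hearts, with a call that depended on the scaling, on the probes used and on single arrays. Its brightest kept probe, ILMN_3127391, had signals of 169, 169 and 189 in Bmx-deficient sham and of 148, 157 and 148 in Bmx-deficient AngII hearts, without overlap. The difference was -0.56 ± 0.14 (SE, adjusted p = 0.0151), a 1.48-fold fall. In wild type Balb/C hearts the signals were 154, 166 and 192 under sham and 191, 182 and 218 under AngII, so the AngII arrays were on the whole brighter, while the normalized difference was -0.32 ± 0.14 (SE, adjusted p = 0.0847). Without quantile normalization the wild type difference was 0.17 to 0.30 and was not called, and relative to the median of all genes it was -0.09 to -0.26 in all 4 scalings. The Bmx-deficient fall kept its sign but lost its call after median scaling (-0.53, adjusted p = 0.0845), without normalization between arrays (-0.49, adjusted p = 0.19), on the log2 signals (-0.22, adjusted p = 0.374), and without replicate 3 of the AngII group (-0.51, adjusted p = 0.0703) or replicate 3 of the sham group (-0.50, adjusted p = 0.0654).

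Of the 6 Npr3 probes 3 were kept. In Bmx-deficient Balb/C hearts ILMN_2604333 gave -0.31 (adjusted p = 0.258), of the same sign as the brightest probe. There ILMN_2496537 was detected on 0 of 3 sham and 0 of 3 AngII arrays and gave no usable difference. With the mean of the kept probes, which includes the undetected one, the difference was -0.25 ± 0.12 (adjusted p = 0.18) and was not called. In wild type Balb/C hearts ILMN_2496537 gave 0.26 (adjusted p = 0.148) and ILMN_2604333 gave -0.045 (adjusted p = 0.869). In C57Bl/6J hearts, where the signal of ILMN_3127391 ranged from 213 to 344, its difference was 0.09 ± 0.19 (adjusted p = 0.821) in wild type and 0.14 ± 0.19 (adjusted p = 0.718) in Bmx-deficient mice. There ILMN_2496537 gave 0.24 (adjusted p = 0.528) in wild type and 0.72 (adjusted p = 0.0634) in Bmx-deficient mice. In the latter it was detected on 1 of 3 sham and 3 of 3 AngII arrays. For ILMN_2604333 the values were -0.18 (adjusted p = 0.683) in wild type and 0.21 (adjusted p = 0.636) in Bmx-deficient mice.

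Npr1, the cyclase receptor for ANP and BNP, sat at the detection limit. Its probe was detected on 6 of 12 C57Bl/6J and 8 of 12 Balb/C arrays, with signals of 128 to 157 and of 100 to 116. None of its AngII differences was called, and they ranged from -0.22 ± 0.17 (adjusted p = 0.467) in wild type C57Bl/6J to 0.07 ± 0.13 (adjusted p = 0.767) in Bmx-deficient Balb/C hearts.

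**Figure D5:**
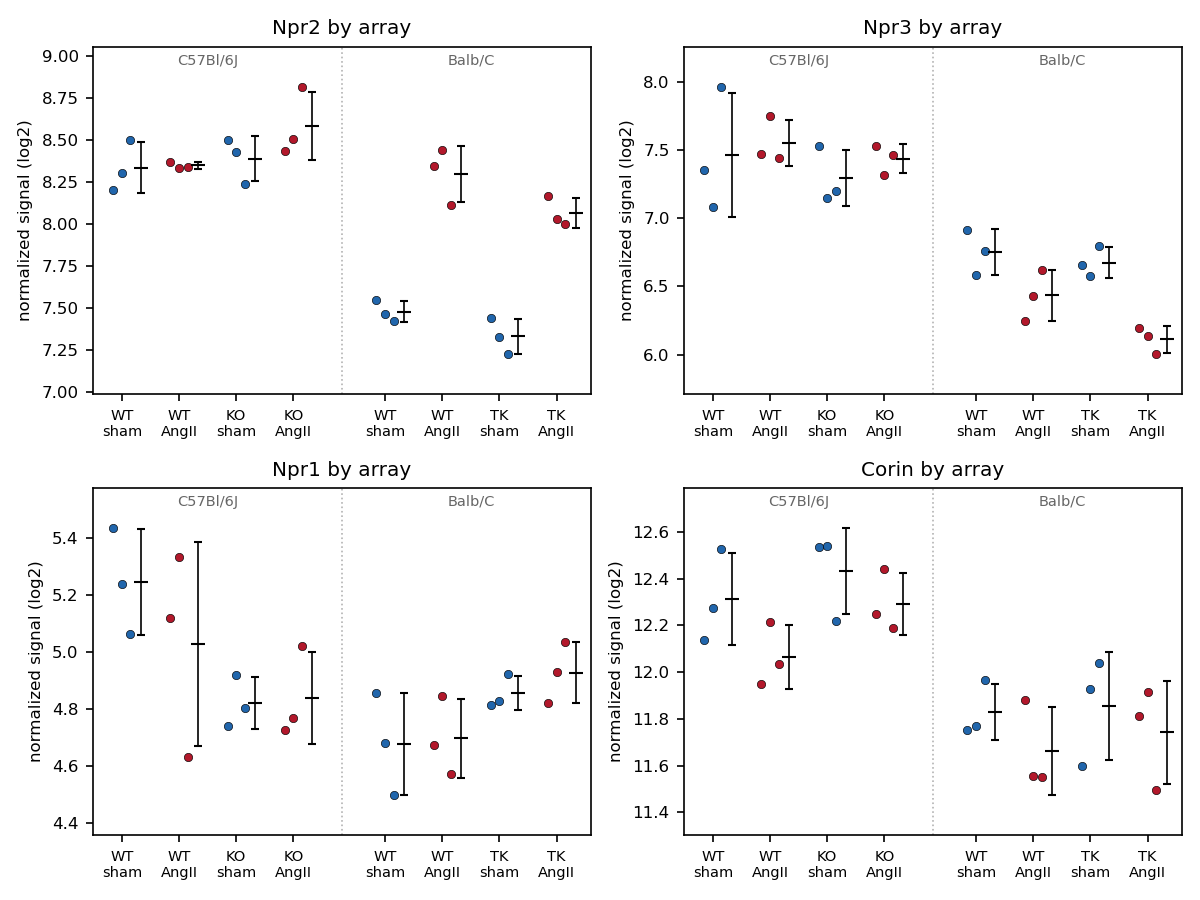
Normalized log2 signal of Npr2, Npr3, Npr1 and Corin (vertical axes) on each array by group; points are arrays, blue for sham and red for AngII, and bars are the group mean ± SD (n = 3). The infusion groups of Npr2 do not overlap in Balb/C hearts, where the means go from 7.48 to 8.30 in wild type and from 7.33 to 8.07 in Bmx-deficient mice.

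Comparing Bmx-deficient with wild type hearts directly asked whether loss of Bmx changed these genes. Under sham infusion 0 of 6 genes were called by limma in C57Bl/6J, against 0% of all genes, with 1 of 6 at an unadjusted p below 0.05. That gene was Npr1, at 5.25 ± 0.19 in wild type and 4.82 ± 0.09 in Bmx-deficient hearts (SD, n = 3 each), a difference of -0.42 ± 0.17 (adjusted p = 0.686). Its groups did not overlap, as in 10.9% of all genes. As the probe was detected on 3 of 3 wild type and 0 of 3 Bmx-deficient arrays, the ratio of these group means is only bounded, at no less than 1.14-fold. This bound leaves out the spread between arrays, and the difference was not called. In sham Balb/C hearts 0 of 6 genes were called, again against 0% of all genes and with 0 of 6 at an unadjusted p below 0.05, and the nearest was Nppa, 0.32 ± 0.22 higher in Bmx-deficient hearts (adjusted p = 0.601).

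Under AngII the genotypes differed in Nppa in Balb/C hearts. Nppa was lower in Bmx-deficient than in wild type hearts by 1.08 ± 0.22 on the log2 scale, or 2.11-fold (adjusted p = 0.00491), in 3 of 3 against 3 of 3 arrays without overlap. It was the 1 of 6 genes called there, against 10.7% of all genes, and Nppa and Npr3 were the genes whose groups did not overlap, against 29.2% of all genes. Npr3 was lower by 0.32 ± 0.14 (adjusted p = 0.158). The differences of Nppb, at -0.36 ± 0.21 (adjusted p = 0.305), and of Npr2, at -0.23 ± 0.13 (adjusted p = 0.268), had the same sign. In the 3 scalings without quantile normalization the median of all genes in this comparison moved from -0.01 to -0.26, -0.32 and -0.20, and both Npr2 (-0.53 to -0.65) and Npr3 (-0.38 to -0.71) then passed the threshold as well. In C57Bl/6J hearts 0 of 6 genes were called under AngII by limma, against 0.166% of all genes, with 1 of 6 at an unadjusted p below 0.05. This was Nppb, at 14.58, 14.64 and 14.76 on the wild type and 14.24, 14.16 and 14.35 on the Bmx-deficient arrays, a difference of -0.40 ± 0.12 (adjusted p = 0.291). The groups of Nppb and of Npr2 did not overlap, as in 14.8% of all genes, with Npr2 0.24 ± 0.13 higher in Bmx-deficient hearts (adjusted p = 0.571).

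The difference between the genotypes' AngII responses was tested as an interaction. In Balb/C mice 1 of 6 genes was called, against 2.11% of all genes. The Nppa response was smaller in Bmx-deficient than in wild type hearts by 1.40 ± 0.31 on the log2 scale (adjusted p = 0.0262), or 2.64-fold. The direction was kept under every alternative, but the call was lost without the detection filter (adjusted p = 0.101), with the deposited normalized values (-1.36, adjusted p = 0.0519) and when any 1 of 8 of the 12 arrays was left out (-1.22 to -1.45, adjusted p = 0.0607 to 0.0894). These were replicates 2 and 3 of wild type AngII, 1 and 2 of Bmx-deficient AngII, 1 and 2 of Bmx-deficient sham, and 1 and 3 of wild type sham. For Nppb the interaction was -0.34 ± 0.30 (adjusted p = 0.653) and for Npr2 -0.09 ± 0.18 (adjusted p = 0.869). In C57Bl/6J mice 0 of 6 genes were called by limma, against 0.0555% of all genes and with 0 of 6 at an unadjusted p below 0.05. There the interaction was 0.09 ± 0.26 for Nppa (adjusted p = 0.951) and -0.32 ± 0.17 for Nppb (adjusted p = 0.602).

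The strains were compared through their AngII responses in a joint fit of the 24 arrays, since each strain had its own file of signals and levels were not tested between them. Strain and file, and any difference in array handling that goes with them, cannot be told apart. In wild type mice 2 of 6 genes were called, against 15.6% of all genes. The Nppa response was larger in Balb/C than in C57Bl/6J hearts by 2.24 ± 0.31 on the log2 scale (adjusted p = 8.94e-05), or 4.72-fold. On the joint scale its mean went from 11.7 under sham to 14.8 under AngII in Balb/C and from 13.5 to 14.4 in C57Bl/6J hearts. The Npr2 response was larger by 0.79 ± 0.17 (adjusted p = 0.00358), or 1.73-fold. The responses of Nppb differed by -0.18 ± 0.27 (adjusted p = 0.687), a value that lay at 0.01 to 0.11 without quantile normalization, where the median of all genes moved from -0.03 to 0.41, 0.51 and 0.30. In Bmx-deficient mice 0 of 6 genes were called by limma, against 1.39% of all genes, although 3 of 6 had an unadjusted p below 0.05. These were Nppa at 0.70 ± 0.31 (adjusted p = 0.243), Npr2 at 0.52 ± 0.17 (adjusted p = 0.117) and Npr3 at -0.71 ± 0.24 (adjusted p = 0.131).

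Genes that cut, clear or bind the peptides elsewhere gave a mixed picture. Of 8 listed genes for processing and clearance 6 were tested, and Nppc, the C-type peptide gene, and Ostn, which encodes a ligand of the clearance receptor, did not pass the detection filter. Wild type Balb/C hearts had 1 of them higher and 5 lower under AngII, against 37.2% of all genes called, with a median difference of -0.73 against -0.06 over all genes. The falling genes included Mme, which encodes neprilysin, the main natriuretic peptide degrading enzyme (-0.88 ± 0.17, adjusted p = 0.000947), Dpp4, a peptidase that shortens BNP (-0.81 ± 0.19, adjusted p = 0.00374) and Pcsk6, a protease that activates corin (-0.77 ± 0.13, adjusted p = 0.000384), and the rising gene was Furin, a convertase of peptide precursors (0.37 ± 0.13, adjusted p = 0.0342). In the 3 scalings without quantile normalization 1 rose and at most 1 fell. For Bmx-deficient Balb/C hearts the count was 0 risen and 4 fallen of 6, against 13.4% of all genes, among them Ece1, the endothelin converting enzyme (-0.62 ± 0.13, adjusted p = 0.00626), Ide, the insulin degrading enzyme, which also cuts ANP (-0.57 ± 0.14, adjusted p = 0.016), and Mme (-0.55 ± 0.17, adjusted p = 0.0469), and at most 1 fell without quantile normalization. In C57Bl/6J wild type hearts Ide rose by 0.77 ± 0.11 (adjusted p = 0.00167), and it was 0.79 ± 0.11 lower in Bmx-deficient than in wild type hearts under AngII (adjusted p = 0.00748).

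Downstream of the cyclase receptors, 12 of 15 listed cGMP effectors and phosphodiesterases were tested. In wild type Balb/C hearts 2 rose and 2 fell, a share of calls near the 37.2% of all genes, with 4 or 5 rising and 2 falling without quantile normalization. Pde2a, a phosphodiesterase that cGMP stimulates, fell by 1.43 ± 0.17 on the log2 scale (adjusted p = 1.46e-05), and Mrvi1, a substrate of cGMP-dependent protein kinase, fell by 1.24 ± 0.14 (adjusted p = 6.71e-06). Pde1a, a calcium-dependent phosphodiesterase, rose by 0.94 ± 0.17 (adjusted p = 0.000626), and Prkg1, the kinase gene itself, rose by 0.70 ± 0.19 (adjusted p = 0.00956). With Bmx deficiency 0 rose and 2 fell in Balb/C hearts, against 13.4% of all genes, Pde2a by 0.84 ± 0.17 (adjusted p = 0.00422) and Mrvi1 by 0.44 ± 0.14 (adjusted p = 0.0394), with 0 or 1 falling without quantile normalization. The responses of Pde1a (-1.21 ± 0.25, adjusted p = 0.0168) and Mrvi1 (0.79 ± 0.19, adjusted p = 0.0421) differed between the Balb/C genotypes. In C57Bl/6J hearts the 1 call of this list was Pde2a in wild type mice, which fell by 0.48 ± 0.11 (adjusted p = 0.0225).

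Of 26 listed transcription factors and cofactors that are known to act on the peptide genes, 21 passed the filter in C57Bl/6J and 22 did so in Balb/C. In wild type C57Bl/6J hearts 0 rose and 2 of 21 fell, against 7.9% of all genes, namely Hdac4, a repressor of hypertrophic genes (-0.81 ± 0.16, adjusted p = 0.00898), and Tbx3, a T-box repressor (-0.63 ± 0.17, adjusted p = 0.0434). In Bmx-deficient C57Bl/6J hearts Hdac4 (-0.96 ± 0.16, adjusted p = 0.0133) and Tbx5, a T-box activator (-0.73 ± 0.18, adjusted p = 0.0459) fell. In wild type Balb/C hearts 2 rose and 6 fell of 22 under quantile normalization, a share of calls near the 37.2% of all genes, with a list median of -0.23, whereas 6 to 11 rose and 0 fell in the scalings without it, with medians of 0.28 to 0.41, so the list had no direction that held across scalings. In Bmx-deficient Balb/C hearts 2 of 22 fell, against 13.4% of all genes, and 0 were called without quantile normalization. These were Gata4, a GATA factor of heart muscle (-0.59 ± 0.14, adjusted p = 0.00942), and Tead1, a Tead factor (-0.53 ± 0.15, adjusted p = 0.0293). Both were also among the 6 that fell in wild type Balb/C hearts, Gata4 by 0.55 ± 0.14 (adjusted p = 0.00469) and Tead1 by 0.52 ± 0.15 (adjusted p = 0.0122). The largest fall there was that of Myocd (-0.825 ± 0.16, adjusted p = 0.000943). The 2 risers were Tbx20 (0.64 ± 0.16, adjusted p = 0.00555) and Hand2 (0.585 ± 0.21, adjusted p = 0.0362). Between the Balb/C genotypes under AngII, Tbx20 was lower (-0.80 ± 0.16, adjusted p = 0.00477) and Myocd higher (0.54 ± 0.16, adjusted p = 0.0421) in Bmx-deficient hearts, against 10.7% of all genes called. Of the reference genes of hypertrophy, skeletal actin Acta1 rose in wild type C57Bl/6J hearts by 2.54 ± 0.32 (adjusted p = 0.00111) and in Bmx-deficient ones by 1.56 ± 0.32 (adjusted p = 0.0282). In wild type Balb/C hearts Acta1 fell by 0.44 ± 0.14 (adjusted p = 0.0174), a difference that was -0.09 to -0.22 and not called without quantile normalization. Myh7, the slow myosin heavy chain, rose in Bmx-deficient C57Bl/6J hearts by 2.23 ± 0.48 (adjusted p = 0.0314) and in Balb/C hearts by 2.41 ± 0.29 (adjusted p = 1.88e-05) in wild type and 2.83 ± 0.29 (adjusted p = 3.43e-05) in Bmx-deficient mice. It was not called in wild type C57Bl/6J hearts, where the median difference of the 2 reference genes was 1.94. Acta1 was not called in Bmx-deficient Balb/C hearts. Neither gene was called between genotypes or in the interaction of either strain.

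Listed markers of atrial muscle and of other cell types were compared as well. Of 9 listed atrial genes 5 passed the filter in Balb/C and 4 did so in C57Bl/6J, and Myl7, the atrial myosin light chain, was detected on 0 of 24 arrays. Sln, the atrial sarcolipin gene, was detected on 1 array in all and on only 1 of its probes. Of these 5 atrial genes 3 rose and 1 fell in wild type Balb/C hearts, where 37.2% of all genes were called. Dkk3, a secreted glycoprotein gene, rose by 3.91 ± 0.23 (adjusted p = 2.42e-08), Myl4, a second atrial light chain gene, rose by 1.12 ± 0.20 (adjusted p = 0.000404), and Kcnj3, a potassium channel gene, fell by 0.67 ± 0.20 (adjusted p = 0.0137), while 2 or 3 rose and 0 fell in the other 4 scalings. The remaining riser, Kcna5, rose by 0.61 ± 0.19 (adjusted p = 0.0205) in wild type and by 0.85 ± 0.19 (adjusted p = 0.00935) in Bmx-deficient Balb/C hearts. Mybphl was not called, and in wild type Balb/C hearts it was detected on 3 of 3 sham and 0 of 3 AngII arrays. Dkk3 also rose in Bmx-deficient Balb/C hearts, by 1.77 ± 0.23 (adjusted p = 0.000193). It rose in wild type C57Bl/6J hearts by 1.85 ± 0.34 (adjusted p = 0.00731) and in Bmx-deficient C57Bl/6J hearts by 1.39 ± 0.34 (adjusted p = 0.0457). The summed normalized level of the tested atrial genes, off the log scale, was 320 to 403 in wild type sham, 1382 to 2261 in wild type AngII, 370 to 469 in Bmx-deficient sham and 675 to 756 in Bmx-deficient AngII hearts. Dkk3 made up most of the wild type Balb/C rise, since without it the sum was 247.1 to 306.0 under sham and 400.5 to 491.6 under AngII. In C57Bl/6J hearts the sum with Dkk3 was 328 to 350 in wild type sham, 452 to 567 in wild type AngII, 346 to 447 in Bmx-deficient sham and 434 to 506 in Bmx-deficient AngII hearts.

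Nonmuscle markers also moved under AngII, in wild type Balb/C hearts and in the other groups. In wild type Balb/C hearts 4 of 5 fibroblast markers and 3 of 3 tested macrophage markers rose, against 37.2% of all genes called. Without quantile normalization 5 of 5 and 3 of 3 did so. Of 4 tested endothelial markers 3 fell, among them Tie1 by 1.03 ± 0.17 (adjusted p = 0.000274), and of 3 smooth muscle markers 2 fell, among them Acta2 by 1.04 ± 0.21 (adjusted p = 0.00119). Without quantile normalization 0 or 1 fell in each of these lists, and in 2 of the 3 scalings 1 smooth muscle marker rose. The summed fibroblast level was 11798 to 13718 in wild type sham, 19447 to 24483 in wild type AngII, 13330 to 13785 in Bmx-deficient sham and 15008 to 17866 in Bmx-deficient AngII hearts. The summed macrophage level in the same order was 537 to 1081, 1481 to 2216, 974 to 1990 and 922 to 1585. In Bmx-deficient Balb/C hearts 1 of 5 fibroblast and 2 of 3 macrophage markers rose and 2 of 4 endothelial markers fell, against 13.4% of all genes. In wild type C57Bl/6J hearts 2 of 5 fibroblast and 1 of 3 macrophage markers rose, against 7.9% of all genes. For Bmx-deficient C57Bl/6J hearts these counts were 1 of 5 and 3 of 3, against 3.72% of all genes. Of 3 tested red cell markers 0 were called in wild type Balb/C hearts. In the other groups 2 of them rose in Bmx-deficient Balb/C, 2 in wild type C57Bl/6J and 1 in Bmx-deficient C57Bl/6J hearts. Between the Balb/C genotypes under AngII, 3 of 5 fibroblast, 1 of 3 macrophage and 1 of 4 endocardial markers were lower in Bmx-deficient hearts. There 1 of 3 smooth muscle markers was higher, and 0 of 4 endothelial markers were called, against 10.7% of all genes. The part of these cell types in the Nppa and Npr2 responses, and in the genotype difference of Nppa, was not tested.

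The genes whose levels were most like the peptide genes were sought by Pearson correlation over the 24 arrays, each strain centred on its own mean, among 9920 other genes. These arrays share the infusion and genotype groups, so the values are descriptions. Nppa was most like Dkk3 (r = 0.95), Mgp (r = 0.95), Tmem176b (r = 0.95), Tspo (r = 0.94) and Ftl1 (r = 0.94). Nppb was most like Tnfrsf12a (r = 0.92), Lman1l, Rrp12 (r = 0.91 each), 1500009L16Rik and Rcan1 (r = 0.90 each). Among the 6 genes themselves Nppa was closer to Npr2 (r = 0.86) than to Nppb (r = 0.75). The array with the highest Nppa level was also the one with the highest Nppb level in 3 of the 8 groups.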

How the data were processed

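Per the labels, biotin-labelled cRNA was made with an Ambion MessageAmp kit from RNA extracted with TRIsure and NucleoSpin RNA II. The deposited files held a linear signal intensity for each probe and array, not normalized, with a deposited detection p-value beside it. The authors' deposited series values were log2 values with the same median on all arrays of a strain (7.04 in C57Bl/6J, 6.68 in Balb/C), and how they were normalized was not given in the sources used here. Scanner software, slides and scan dates were likewise not given, so no batch could be tested. In the Balb/C file 313 detection p-values on 11 arrays, which had lost their decimal point, were read as 1.

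Signals were corrected with limma 3.58.1 in R 4.3.3 (nec with detection p-values, offset 16), put on the log2 scale and quantile-normalized within each strain. Probes detected on 3 or more of 12 arrays were kept (20319 and 19783), and the brightest kept probe stood for its gene. Gene names came from the platform annotation, of which 34807 probes matched assembly GRCm38.p6 by Entrez identifier. Group means were fitted by strain with limma (8 residual degrees of freedom), and strain differences by a joint fit of 24 arrays over 9921 genes (16 residual degrees of freedom). P-values were two-sided. The fits were tested on simulated data.

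The 6 genes and the gene lists were chosen with earlier results of these data known. Named beside the 6 genes were, by rule, up to 3 called genes of each list with the largest difference in a comparison, the 5 genes most like each peptide gene, Acta1 and Myh7. Furin, Prkg1 and Mybphl were named after their values were seen. A lower bound on a fold took each undetected array at the higher of its own level and the lowest detected level on that array. Other background corrections, offsets, scalings, filters, priors, array weights, a replicate block and single arrays left out were tried as alternatives, 3 of the scalings and probe choices after seeing the data.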

Additional observations from a re-analysis of the deposited data

Results flagged for a closer look

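The Nppa response to AngII differed between the Balb/C genotypes. It was smaller in Bmx-deficient than in wild type hearts by a log2 difference of -1.40 ± 0.31 (limma interaction term, adjusted p = 0.0262), with all 3 Bmx-deficient AngII arrays below all 3 wild type AngII arrays. The call was lost without the detection filter (adjusted p = 0.101), with the deposited normalized values (adjusted p = 0.0519) and when any 1 of 8 of the 12 arrays was left out (adjusted p = 0.0607 to 0.0894), while the sign was kept. Relative to the median of all genes the value was -1.41 under quantile normalization and -1.15 to -1.30 in the scalings without it.

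The wild type Nppa response differed between the strains by 2.24 ± 0.31 on the log2 scale (limma, joint fit, adjusted p = 8.94e-05), with the larger response in Balb/C hearts. The joint means were 11.7 in Balb/C and 13.5 in C57Bl/6J under sham, and 14.8 and 14.4 under AngII, and levels were not tested between strains. Over the scalings tried the difference between the responses ranged from 2.04 to 2.43.

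The wild type Npr2 response was larger in Balb/C than in C57Bl/6J hearts by 0.79 ± 0.17 (limma, joint fit, adjusted p = 0.00358). Over the scalings tried this ran from 0.60 to 1.45. The median of all genes in this comparison was -0.03 under quantile normalization. It was 0.41 after median scaling, 0.51 without normalization between arrays and 0.30 on the log2 signals. Neither this range nor that of Nppa between the strains is given relative to that median.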

How the results depend on the processing

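No called gene changed direction, and of 744 tests of single genes under alternatives listed at the start 736 kept their side of the threshold, as did 149 of 156 under alternatives added after seeing the data and 562 of 576 with 1 array left out. In the comparison of Balb/C genotypes under AngII, 1 of the 6 genes was called by quantile normalization, 2 with array weights, and 3 with median scaling, without normalization between arrays and on the log2 signals; over all genes 1146 were called, against 2040, 2153, 2444 and 2315. For the Balb/C interaction 1 gene was called and 0 without the detection filter or with the deposited normalized values, and 225 genes in all against 110 without the filter. With 1 array left out the number of the 6 genes called was 0 to 1 for the Balb/C interaction, 1 to 2 for Bmx-deficient C57Bl/6J, 2 to 4 for Bmx-deficient Balb/C and 2 to 3 for the wild type strain difference, where Npr3 was called without replicate 3 of C57Bl/6J wild type sham (-0.66, adjusted p = 0.0422). Nppb in Bmx-deficient Balb/C hearts was called with a trended prior (0.65, adjusted p = 0.0417) and with array weights (0.65, adjusted p = 0.0122). Npr3 was lower in Bmx-deficient Balb/C AngII hearts with array weights (-0.40, adjusted p = 0.0383). The causes were not tested.

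Replicate numbers did not pair the samples. Same-numbered arrays correlated in their deviations from the group means between -0.16 and 0.19 in C57Bl/6J, with 1 of 18 pairs over 0.1, and between -0.13 and 0.28 in Balb/C, with 2 of 18 over 0.1, and 10 and 12 of 36 best matches were with the same number. With the replicate number as a block no call among the 6 genes changed: 2 and 2 of them were called for the AngII responses of wild type and Bmx-deficient C57Bl/6J and 3 and 3 for those of Balb/C. Over all genes the calls in Bmx-deficient C57Bl/6J went from 402 to 253 and those for C57Bl/6J genotypes under AngII from 18 to 11. Groups of 3 arrays and signals close to background, as for Npr1, limit what could be detected.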

Other observations

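Genes beside the peptide genes on chromosome 4 were chosen by position alone, 5 on each side. In wild type Balb/C hearts Mfn2, a mitochondrial fusion gene, fell by 0.47 on the log2 scale (adjusted p = 0.0103), Fv1 fell by 0.49 (adjusted p = 0.0403), and Mad2l2 rose by 0.86 (adjusted p = 0.00718). In Bmx-deficient Balb/C hearts Mfn2 fell by 0.42 (adjusted p = 0.0421). In wild type C57Bl/6J hearts Fv1 rose by 0.53 (adjusted p = 0.0082), and in Bmx-deficient C57Bl/6J hearts 0 of the neighbours were called. Plod1, which encodes a collagen lysyl hydroxylase, was 0.58 lower in Bmx-deficient than in wild type Balb/C hearts under AngII (adjusted p = 0.0291). All of these adjusted p-values are from limma over all genes.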
